A study of Mus musculus with 9 samples.

Results

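The iron transport and storage genes are 10 mouse genes that bring iron into cells, hold it, release it or sense it. They were picked by symbol from the 23997 gene symbols listed for each library, and the values of all loci with the same symbol were added. Grouped by role they are *Cp* and *Trf* (secreted ferroxidase and iron carrier), *Tfrc* and *Slc11a2* (uptake), *Fth1* and *Ftl1* (storage), *Slc40a1* (export), *Hmox1* (heme breakdown), and *Ireb2* and *Aco1* (iron regulatory proteins). All 10 passed the filter on low values. Because the genes were chosen with their levels in these same libraries known, their values are a description, and no test of them is independent of that choice.

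Retinal ganglion cells (RGCs), the neurons whose axons form the optic nerve, were purified by immunopanning from retinas of C57BL/6J mice, for which the labels give an age of 8 weeks. Control eyes received saline in the anterior chamber, and eyes of the Mild IOP and Moderate IOP groups received microbeads, which obstruct the outflow of aqueous humor and raise intraocular pressure (IOP). IOP was followed for 2 weeks, and eyes with microbeads were then assigned to Mild IOP or Moderate IOP by their average measured rise. The labels name no genetic alteration in any group. Within a group the RNA was combined before it was split into 3 samples, so the 9 libraries are technical replicates of 3 pools. The Moderate IOP pool drew on fewer retinas than the Control and Mild IOP pools. Every difference between groups is therefore a difference between pools, and the spread and p-values do not include variation between animals.

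Iron enters most cells bound to transferrin through the transferrin receptor and crosses the endosomal membrane through the transporter encoded by *Slc11a2*. Iron that is not used is kept inside ferritin, a shell of heavy and light chains, and leaves through ferroportin together with a ferroxidase such as ceruloplasmin. In the retina these proteins are studied because photoreceptors and neurons need iron, while loosely bound iron favors oxidative damage. When iron is scarce, the iron regulatory proteins bind hairpins in messenger RNAs called iron-responsive elements (IREs): binding in the 5′ UTR blocks translation and binding in the 3′ UTR of *Tfrc* protects the transcript. Of these layers only transcript levels were measured here.

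The IREs are shown because the iron regulatory proteins, themselves among the 10 genes, act through them. UTRs of the GENCODE M21 transcripts (build mm10) were searched on the transcript strand for a bulged C 6 bases before the loop, an upper stem of 5 base pairs with G–U pairs allowed, and the 6-base loop CAGTGN with any final base except G. A UTR match was present in 122 of 21877 genes with coding transcripts (0.558%), and in 4 of the 10 iron genes. *Fth1* (chr19:9982732-9982760, plus strand), *Ftl1* (chr7:45459779-45459807, minus strand) and *Slc40a1* (chr1:45925465-45925493, minus strand) each held 1 match in the 5′ UTR. *Tfrc* held 4 matches in its 3′ UTR on the plus strand, at chr16:32631219-32631247 (a), chr16:32631598-32631626 (b), chr16:32631663-32631691 (c) and chr16:32631710-32631738 (d). The 29-base hairpins are written 5′ to 3′, with the loop in capitals.
*Fth1*: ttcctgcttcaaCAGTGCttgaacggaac
*Ftl1*: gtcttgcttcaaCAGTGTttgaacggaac
*Slc40a1*: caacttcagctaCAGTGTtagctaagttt
*Tfrc* a: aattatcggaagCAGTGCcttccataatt
*Tfrc* b: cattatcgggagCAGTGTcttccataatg
*Tfrc* c: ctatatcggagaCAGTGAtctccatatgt
*Tfrc* d: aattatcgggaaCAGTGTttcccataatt
The *Fth1* and *Ftl1* hairpins carry the same upper stem, and their other bases differ at few positions, among them the last base of the loop. No match was found in the annotated UTRs of *Cp*, *Trf*, *Slc11a2*, *Hmox1*, *Ireb2* or *Aco1*, which says only that this pattern is not written there.

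Levels are given as scaled FPKM, the fragments per kilobase of transcript relative to the mapped fragments of the library, after division by a factor for each library (0.983 to 1.06). A log2 fold-change is the difference of 2 group means on the scale log2(scaled FPKM + 1), which understates changes of low values, and SE is their standard error. The number of fragments behind a value was derived from the confidence interval deposited with it. Derived depth ranged from 4830000 to 8770000 fragments per library. RGC markers were present in every library, with summed levels of 10 markers from 1450 to 1533 FPKM in Control, 1065 to 1311 FPKM with Mild IOP and 2289 to 2434 FPKM with Moderate IOP. The 3 highest averaged 911, 641 and 1389 FPKM (*Sncg*), 343, 374 and 537 FPKM (*Nefl*) and 87.8, 76.7 and 195 FPKM (*Rbpms*) in the same order of groups. Amacrine and rod markers were present as well, at 1172 to 1279 and 442 to 547 FPKM in Control (6 markers each), so the cells were enriched and not pure. In Mild IOP, replicate 2 held the highest level of *Cp* and *Slc40a1* and the lowest of *Fth1* and *Ftl1*. The differences of *Cp*, *Fth1* and *Ftl1* between Mild IOP and Control are also given without it. *Slc40a1* dropped under the filter on low values without that replicate.

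**Figure D1:**
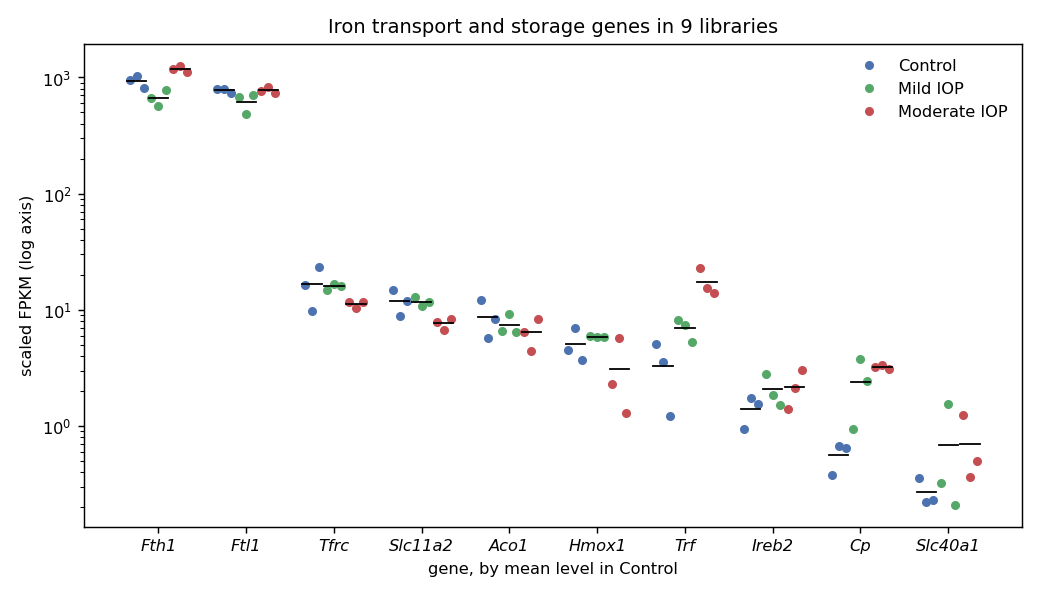
Scaled FPKM (log axis) of the 10 iron genes in each of the 9 libraries, ordered by their mean in Control; points are libraries and bars are group means. Both ferritin genes lie far above the other 8, and *Cp* and *Trf* have the largest ratios of Moderate IOP to Control, 5.68 and 5.33.

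In Control, the order of mean levels was *Fth1*, *Ftl1*, *Tfrc*, *Slc11a2*, *Aco1*, *Hmox1*, *Trf*, *Ireb2*, *Cp* and *Slc40a1*. Both ferritin chains stood apart from all the rest and together made up 97.3% ± 0.643 (SD, n = 3) of the summed level of the 10 genes. *Fth1* ranked 56 and *Ftl1* ranked 75 among 23995 genes, whereas *Tfrc* ranked 4568. From *Tfrc* down to *Ireb2*, each gene overlapped the next in its Control replicates, so neighbours in this stretch do not differ beyond their spread. *Cp* lay below *Ireb2* and above *Slc40a1* without overlap. In Moderate IOP, *Trf* moved to the third place, above *Tfrc* and apart from it, and *Cp* moved from rank 12680 to rank 9294 among all genes.

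Both genes for secreted proteins, *Cp* and *Trf*, were higher in each IOP group than in Control, without overlap of replicates. *Cp* (chr3:19957054-20009750) encodes ceruloplasmin, the copper ferroxidase that loads iron onto transferrin. It measured 0.380, 0.681 and 0.645 FPKM in the Control replicates, 0.940, 3.77 and 2.43 with Mild IOP, and 3.24, 3.37 and 3.07 with Moderate IOP. The Moderate IOP replicates lay close together, whereas Mild IOP ran from a value near Control to the highest of all 9 libraries. Group means were 0.569 ± 0.165, 2.38 ± 1.42 and 3.23 ± 0.151 FPKM (SD, n = 3), which is 4.18 times the Control mean in Mild IOP and 5.68 times in Moderate IOP. On the log2 scale *Cp* differed from Control by 1.02 in Mild IOP and 1.44 in Moderate IOP (SE 0.33 for both). Without replicate 2 of Mild IOP the Mild IOP difference was 0.72, and a pseudocount of 0.1 instead of 1 gave differences of 1.73 and 2.35. These values rest on few fragments, between 9.03 and 131 per library.

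*Trf* (chr9:103208876-103230286), which encodes transferrin, measured 5.08, 3.55 and 1.22 FPKM in Control, 8.11, 7.35 and 5.34 with Mild IOP, and 23.1, 15.5 and 14.0 with Moderate IOP. The 3 groups did not overlap in any pair, and it was the only 1 of the 10 genes that was higher in Mild IOP than in Control and higher again in Moderate IOP without overlap. Group means were 3.28 ± 1.95, 6.94 ± 1.43 and 17.5 ± 4.87 FPKM (SD, n = 3), with ratios to Control of 2.11 and 5.33. The log2 differences were 0.99 for Mild IOP, 2.20 for Moderate IOP and 1.21 between Moderate IOP and Mild IOP (SE 0.35 for each). Leaving out each library in turn kept the Moderate IOP difference from Control between 1.79 and 2.51, whereas the Mild IOP difference was 0.58 without Control replicate 3 and 1.30 without Control replicate 1.

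**Figure D2:**
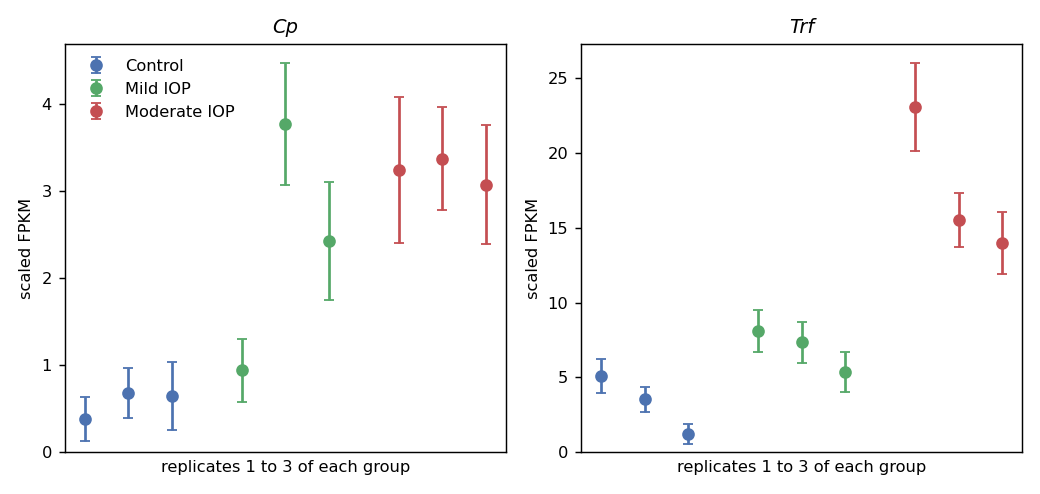
Scaled FPKM of *Cp* and *Trf* in replicates 1 to 3 of each group; points are libraries and vertical bars are the deposited 95% intervals of each estimate, scaled with it. The Moderate IOP replicates of *Trf* lie between 14.0 and 23.1 FPKM, above all others, and those of *Cp* lie between 3.07 and 3.37 FPKM.

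Ceruloplasmin and transferrin are also made by cells other than RGCs, among them Müller glia, retinal pigment epithelium and oligodendrocytes, and markers of these cells were read in the same libraries. In a bulk sample, more cells of a type and more RNA per cell cannot be told apart. The summed level of 12 Müller glia markers ranged from 855 to 901 FPKM in Control, 869 to 923 with Mild IOP and 972 to 1023 with Moderate IOP, and none of the 12 was at 0 throughout. The 3 highest averaged 485, 509 and 423 FPKM (*Dkk3*), 273, 261 and 372 FPKM (*Clu*) and 78.3, 81.2 and 127 FPKM (*Apoe*). Lower in the list, *Slc1a3* and *Aqp4* averaged 2.06 and 1.67 FPKM in Control, and 3 of the 12 averaged below 1 FPKM in each group. Of the 9 Müller markers tested, *Rlbp1* and *Apoe* were called higher in Moderate IOP than in Control. *Rlbp1*, the retinaldehyde carrier of Müller glia and pigment epithelium, averaged 4.46 FPKM in Control, 12.4 FPKM with Mild IOP and 14.5 FPKM with Moderate IOP. Microglia and macrophage markers (10) summed to 32.2 to 41.5, 27.7 to 41.5 and 44.4 to 50.4 FPKM in the same order. Retinal pigment epithelium markers (10) summed to at most 7.60 FPKM in any library, with *Rpe65*, the isomerase that defines this tissue, at 0 in all 9. Of these, *Best1* averaged 0.394 FPKM in Control, 1.47 with Mild IOP and 1.33 with Moderate IOP, with both IOP groups above Control without overlap. *Rdh5* averaged 1.35, 1.44 and 0 FPKM, and only these 2 of the 10 passed the filter on low values. Oligodendrocyte markers (7) summed to 9.31 to 14.3, 11.7 to 15.2 and 13.2 to 14.3 FPKM, with *Mog* and *Opalin* at 0 in all libraries. Endothelial markers (8) reached 28.8 FPKM in Control and 27.6 in Moderate IOP, with *Cldn5* and *Cdh5* at 0 throughout, and astrocyte markers (5) reached 4.44 and 7.13 FPKM. The part of these cells in the levels of *Cp* and *Trf* was not tested.

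**Figure D3:**
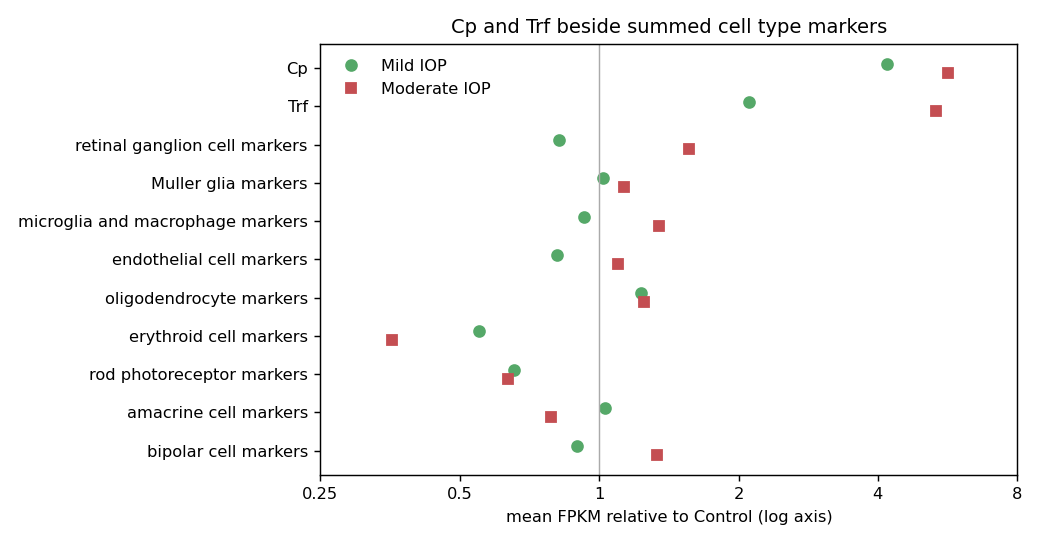
Mean level in Mild IOP (circles) and Moderate IOP (squares) relative to the Control mean (log axis, 1 = Control) for *Cp*, *Trf* and the summed markers of each cell type. *Cp* and *Trf* lie near 5 in Moderate IOP, at 5.68 and 5.33, beyond every marker sum drawn. The RGC sum is the highest of the sums there. A sum mostly follows its highest markers. In Moderate IOP the highest Müller marker, *Dkk3*, was 0.872 times Control, whereas *Rlbp1*, *Vim*, *Apoe* and *Glul* were 3.25, 2.71, 1.62 and 1.56 times. Of 9 Müller markers tested, 7 had log2 differences from Control above 0 and 2 below. Astrocyte and pigment epithelium sums, at most 7.60 FPKM in any library, are not drawn.

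The genes whose centered log2 profiles lay nearest to *Cp* over the 9 libraries, by root mean square (RMS) difference, were *Adm* (0.229), *Fermt2* (0.283), *Ctsh* (0.300), *Slc15a2* (0.304) and *Calr3* (0.329), where the profile of *Cp* itself had an RMS of 0.682. *Adm* encodes the vasodilator peptide adrenomedullin and *Ctsh* the lysosomal protease cathepsin H. Nearest to *Trf*, whose own RMS was 0.989, were *Rprm* (0.488), *Cenpk* (0.497), *Rab5c* (0.511), *1700113A16Rik* (0.518) and *Crip2* (0.522). *Rprm* encodes the cell cycle inhibitor reprimo and *Rab5c* a small GTPase of early endosomes. The profiles of *Cp* and *Trf* differed by an RMS of 0.684. Of 13042 genes, *Trf* ranked 3453 in nearness to *Cp*, and *Cp* ranked 100 in nearness to *Trf*. Such nearness over 9 libraries of 3 pools is a description of these profiles alone.

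The uptake genes had similar means in Control and Mild IOP and lower means in Moderate IOP. *Tfrc* (chr16:32608896-32632794), the transferrin receptor, measured 16.4, 9.74 and 23.6 FPKM in Control, 14.8, 16.9 and 16.1 with Mild IOP, and 11.6, 10.4 and 11.7 with Moderate IOP. Control was spread so widely that it overlapped both other groups, whereas Moderate IOP lay below Mild IOP. The log2 differences from Control were 0.03 in Mild IOP and −0.44 in Moderate IOP, and Moderate IOP differed from Mild IOP by −0.47 (SE 0.26 for each).

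*Slc11a2* (chr15:100387900-100423055), the proton-coupled transporter that moves ferrous iron out of endosomes, measured 14.8, 8.87 and 11.9 FPKM in Control, 13.0, 10.7 and 11.6 with Mild IOP, and 7.86, 6.71 and 8.42 with Moderate IOP. Every Moderate IOP replicate was below every replicate of the other groups. The log2 difference from Control was −0.55 in Moderate IOP (SE 0.21), and the Moderate IOP mean was 7.66 ± 0.873 FPKM against 11.9 ± 2.98 (SD, n = 3). Summed amacrine markers were lower in Moderate IOP too, at 920 to 989 FPKM against 1172 to 1279 in Control. In Mild IOP they summed to 1219 to 1313 FPKM. The 6 markers did not all move with their sum. Between Moderate IOP and Control, 4 had log2 differences below 0 and 2 above. These differences ran from −1.48 for *Slc6a9* to 0.49 for *Tfap2a*. The part of amacrine cells in both uptake genes was not tested.

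The ferritin genes were lowest in Mild IOP. *Fth1* (chr19:9980600-9985111), the heavy chain with ferroxidase activity, measured 949.9, 1035 and 812 FPKM in Control, 661, 571 and 782 with Mild IOP, and 1176, 1257 and 1107 with Moderate IOP. The 3 groups did not overlap, with Mild IOP below Control and Moderate IOP above it. The log2 differences were −0.48 for Mild IOP and 0.34 for Moderate IOP against Control, and 0.82 between the IOP groups (SE 0.14 for each). *Ftl1* (chr7:45457944-45459886), the light chain that aids mineral formation in the ferritin shell, measured 795, 798 and 736 FPKM in Control, 675, 481 and 706 with Mild IOP, and 770.3, 823 and 740.1 with Moderate IOP. Control and Moderate IOP shared the same range, with a log2 difference of 0.00, and Mild IOP lay below both, by −0.34 against Control (SE 0.14). Without replicate 2 of Mild IOP the differences from Control were −0.37 for *Fth1* and −0.17 for *Ftl1*.

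The heavy chain transcript was thus in larger excess over the light chain transcript in Moderate IOP. The ratio of *Fth1* to *Ftl1* was 1.2 ± 0.1 in Control, 1.09 ± 0.107 with Mild IOP and 1.52 ± 0.0173 with Moderate IOP (SD, n = 3), and the Moderate IOP replicates, from 1.5 to 1.53, lay above all others. Ferritin has processed pseudogenes that closely copy both genes, and reads shared with them could be counted for either, so levels of both genes are uncertain to that extent.

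**Figure D4:**
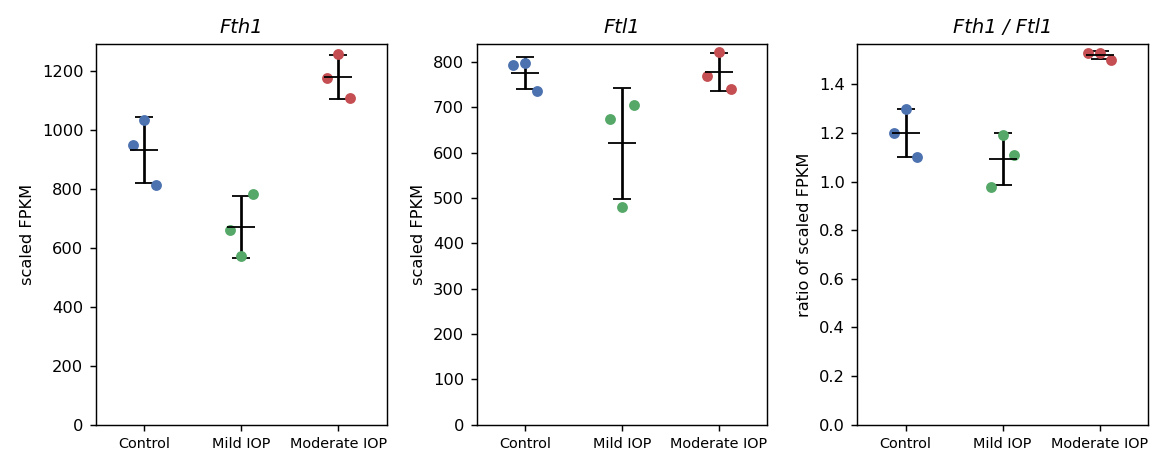
Scaled FPKM of *Fth1* and *Ftl1* and the ratio of the first to the second; points are libraries, the wide bars are means and the error bars are SD (n = 3). *Fth1* separates the 3 groups, *Ftl1* is lower in Mild IOP, and the ratio in Moderate IOP lies between 1.5 and 1.53.

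Transcript length moved with these differences across all genes. Of 13043 tested genes, 11913 had a length, taken as the longest coding transcript in GENCODE M21. The 660 genes below 1000 nt had a median log2 difference of −0.48 between Mild IOP and Control, 0.23 between Moderate IOP and Control, and 0.70 between Moderate IOP and Mild IOP. Among 2372 genes from 1000 to 2000 nt the medians were −0.15, 0.11 and 0.25, and among 4112 genes of 4000 nt or more they were 0.09, −0.06 and −0.15. *Ftl1* has 968 nt and *Fth1* 1494 nt, which places both among the short transcripts. The transcripts of *Trf*, with 2571 nt, and *Cp*, with 4564 nt, are longer, and their lengths belong to classes with medians of −0.03 and −0.06 in Moderate IOP against Control. *Tfrc* (4890 nt) and *Slc11a2* (4415 nt) are among the long ones. The part of length in *Cp*, *Trf*, the ferritin genes or the uptake genes was not tested.

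Export and heme breakdown were at low levels. *Slc40a1* (chr1:45908070-45925594), which encodes ferroportin, measured 0.361, 0.222 and 0.231 FPKM in Control, 0.325, 1.54 and 0.210 with Mild IOP, and 1.25, 0.367 and 0.498 with Moderate IOP. The Moderate IOP replicates lay above the Control ones by a narrow margin, and the Mild IOP mean was carried by replicate 2. The log2 difference was 0.39 in Moderate IOP (SE 0.35), close to its own error, and the values rest on 4 to 36.2 fragments. It is the member nearest the filter, with a mean of 0.556 FPKM over the 9 libraries against a minimum of 0.5, and it passed through the IOP groups.

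*Hmox1* (chr8:75093618-75100593), the inducible heme oxygenase that frees iron from heme, measured 4.49, 6.99 and 3.71 FPKM in Control, 5.96, 5.87 and 5.85 with Mild IOP, and 2.28, 5.75 and 1.30 with Moderate IOP. Mild IOP was tight, and Moderate IOP lay below it but was spread so widely that it overlapped Control. The log2 difference between Moderate IOP and Control was −0.67 (SE 0.36). Summed erythroid markers (5), a sign of blood, ran from 16.2 to 35.4 FPKM in Control, 8.16 to 20.5 with Mild IOP and 6.82 to 13.0 with Moderate IOP, and their part in *Hmox1* was not tested.

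Neither iron regulatory protein gene separated the groups. *Ireb2* (chr9:54863755-54912534), which encodes IRP2, measured 0.948, 1.74 and 1.56 FPKM in Control, 2.82, 1.87 and 1.53 with Mild IOP, and 1.40, 2.14 and 3.03 with Moderate IOP. *Aco1* (chr4:40143265-40199009), whose product IRP1 is a cytosolic aconitase when it holds an iron-sulfur cluster, measured 12.1, 5.70 and 8.43 FPKM in Control, 6.57, 9.16 and 6.40 with Mild IOP, and 6.50, 4.39 and 8.35 with Moderate IOP. All groups overlapped for both genes, with log2 differences from Control of 0.34 and 0.39 for *Ireb2* (SE 0.29) and −0.18 and −0.38 for *Aco1* (SE 0.29).

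Counted over the 10 genes, replicates did not overlap between Mild IOP and Control for 4 genes, where 17.1% of all tested genes did not overlap. The same count was 5 for Moderate IOP against Control (19.4% of all genes) and 6 for Moderate IOP against Mild IOP (27.5%). By limma with Benjamini-Hochberg adjustment over all 13043 genes (FDR below 0.1), none of the 10 passed for Mild IOP against Control, where 0.399% of all genes passed. An unadjusted p below 0.05 was reached there by 4 of the 10 and by 10.2% of all genes. *Cp* and *Trf* passed for Moderate IOP against Control, where 1.84% of all genes passed, and *Trf* and *Fth1* passed for Moderate IOP against Mild IOP, where 10.2% passed. *Cp* did not pass against Control in 7 of the 9 fits that left out a library (all but those without replicate 1 or 2 of Mild IOP), with the replicate block or without a filter, whereas *Trf* passed in all of these. Between the IOP groups *Trf* did not pass in 5 of the 9 (without any 1 of the Mild IOP replicates or replicate 1 or 2 of Moderate IOP), with a pseudocount of 0.1 or without a filter, whereas *Fth1* passed in all of these. Since the genes were chosen on these comparisons, nothing is read from these counts. The SD between replicates was above the error read from the intervals for 27 of the 30 pairs of gene and group. The median ratio over the 30 pairs was 3.01.

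Other genes of iron handling were taken from a list of 72 genes in 10 groups by function, of which 59 passed the filter and were tested in the same fit. For Mild IOP against Control none of the 59 passed, 8 (13.6%) had an unadjusted p below 0.05 beside 10.2% of all genes, and the median log2 difference was −0.14 against 0.01 over all genes. Over all genes 0.00767% were higher and 0.391% lower in that comparison. For Moderate IOP against Control 1 was higher and 1 lower, or 3.39% of 59, beside 0.951% higher and 0.889% lower over all genes. For Moderate IOP against Mild IOP 7 were higher and 2 lower, or 15.3%, beside 7.03% and 3.12%. All 3 comparisons use shared groups, so their counts are not independent. For Moderate IOP against Mild IOP the split over all genes was 917 higher and 407 lower, and it was 731 and 662 without scaling between libraries and 830 and 571 with upper-quartile scaling.

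The mitochondrial group, which imports iron and assembles iron-sulfur clusters, held most of these calls. All 15 of its genes were tested. None was called in Mild IOP against Control, where 13 of 15 had values below 0 (median −0.40) beside 49.0% of all genes, and 4 had an unadjusted p below 0.05 (26.7%, beside 10.2% of all genes). Between Moderate IOP and Mild IOP 6 rose and 1 fell, which is 46.7% of the group beside 10.2% of all genes, with a group median of 0.54. Among all genes below 1000 nt 44.7% were called higher in that comparison, and 14.2% of those from 1000 to 2000 nt. Of the 15 genes, 3 are below 1000 nt, and 2 of these rose. The longest coding transcripts of the 6 genes that rose have 812 nt (*Fdx2*), 883 (*Isca2*), 1084 (*Cisd1*), 1195 (*Nfu1*), 1395 (*Iscu*) and 2312 (*Bola3*). The part of length in them was not tested. Summed RGC markers were also higher in Moderate IOP, with *Sncg* the largest part of the sum. Against Mild IOP 6 of 10 were called higher, beside 7.03% of all genes, and *Pou4f2*, *Pou4f3*, *Slc17a6* and *Isl1* were not called. Relative to Control, the Moderate IOP means of *Pou4f2* and *Pou4f3* were lower, with ratios of 0.937 and 0.840. The part of RGC content in the mitochondrial group was not tested either.

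*Iscu*, the scaffold on which clusters are built, measured 149.7, 156 and 131 FPKM in Control, 112, 98.5 and 124 with Mild IOP, and 187, 219.7 and 216 with Moderate IOP. The groups did not overlap, with Mild IOP lowest, and Moderate IOP was higher than Mild IOP by 0.90 on the log2 scale (SE 0.13, FDR = 0.0061). *Cisd1*, an outer membrane iron-sulfur protein, followed the same order with means of 404.5 ± 23.8, 282 ± 61.8 and 484 ± 25.5 FPKM (SD, n = 3) and rose by 0.80 between the IOP groups (FDR = 0.016). *Bola3*, needed for clusters of lipoate synthesis, rose by 1.33 (FDR = 0.023), the ferredoxin *Fdx2* (listed as *Fdx1l*) by 0.72 (FDR = 0.025), and *Isca2* and the cluster carrier *Nfu1* by 0.80 and 0.68 (FDR = 0.052 for both). The calls of *Isca2* and *Nfu1* were each lost in 4 of the 9 fits that left out a library, including those without replicate 1 or 2 of Mild IOP (FDR up to 0.15 and 0.18). Both were also lost without a filter on low values (FDR = 0.11 and 0.10).

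*Isca1*, the partner of *Isca2* in late cluster assembly, went the other way. It measured 183, 174.7 and 177 FPKM in Control, 167, 183 and 197 with Mild IOP, and 127, 117 and 119 with Moderate IOP. Moderate IOP lay below both other groups without overlap, by −0.56 against Control (SE 0.11, FDR = 0.041) and −0.58 against Mild IOP (FDR = 0.013). The call against Control was lost without Control replicate 1 (FDR = 0.15), Control replicate 2 (FDR = 0.11) or Moderate IOP replicate 2 (FDR = 0.13), and with the replicate block (FDR = 0.10).

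**Figure D5:**
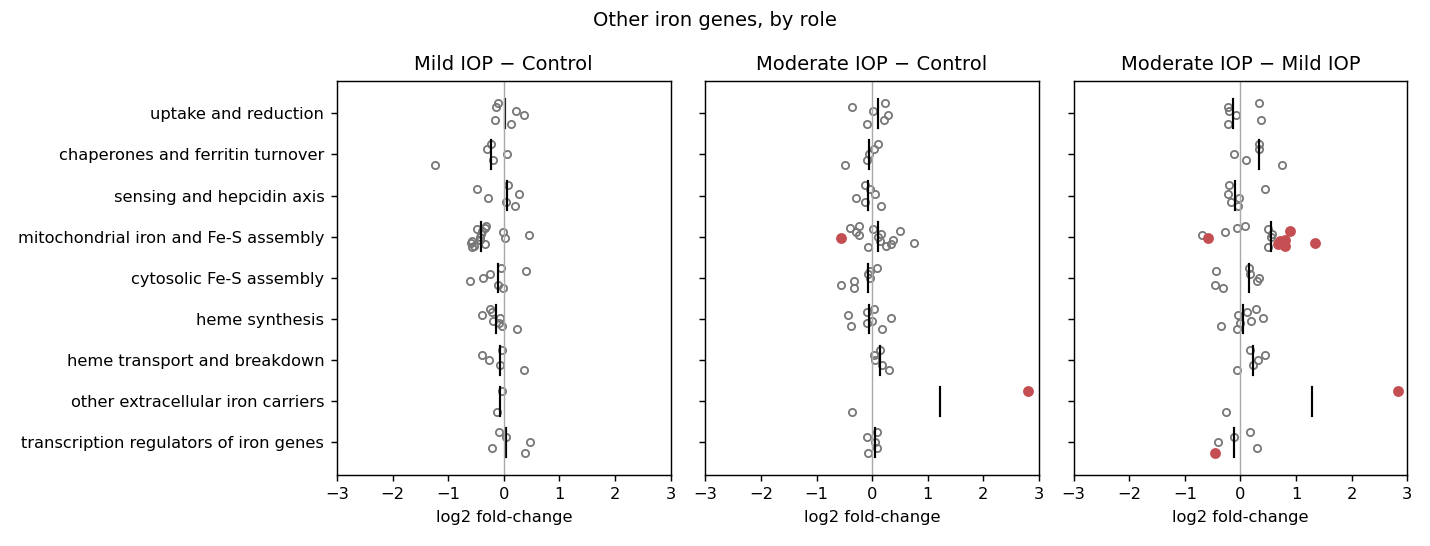
Log2 fold-changes of the 59 tested genes of iron handling other than the 10, by function group, for the 3 comparisons; circles are genes, filled red where the limma FDR is below 0.1, and black bars are group medians. In Moderate IOP against Mild IOP the mitochondrial group has 6 filled circles above 0 and 1 below, and its median is 0.54.

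*Lcn2*, which encodes lipocalin 2, a secreted protein that binds iron-carrying siderophores, was listed at 0, 0 and 0.308 FPKM in Control, 0, 0.225 and 0 with Mild IOP, and 2.58, 15.4 and 6.59 with Moderate IOP. It was called higher in Moderate IOP than in both other groups, and the log2 fold-change depends on the pseudocount, at 2.81 with 1 and 5.35 with 0.1 against Control. Its receptor *Slc22a17* had means of 307, 283 and 237.8 FPKM and passed in no comparison. *Hif1a*, the oxygen-sensing transcription factor, fell by 0.46 between Moderate IOP and Mild IOP (FDR = 0.087). This call was lost in 8 of the 9 fits that left out a library, with FDR up to 0.23. The call was also lost without a filter on low values and with the replicate block (FDR = 0.11 for both).

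The remaining groups had no call in any comparison. For uptake and reduction, the ferrireductase *Steap3* had means of 7.97, 10.4 and 9.84 FPKM, and the endolysosomal channel *Mcoln1* had 72.6, 80.2 and 68.6. Among chaperones, *Pcbp1*, which delivers iron to ferritin, had 139, 118 and 148 FPKM. *Bola2*, a chaperone partner of glutaredoxin, measured 132, 207 and 212 FPKM in Control, 105, 49.1 and 82.1 with Mild IOP, and 144, 122 and 118 with Moderate IOP, and its difference of −1.24 between Mild IOP and Control missed the threshold (FDR = 0.11). Its Mild IOP replicates lay below all Control replicates, and without replicate 1 or 3 of Mild IOP the FDR was 0.098 or 0.099. The ferroxidases *Heph* and *Hephl1*, the relatives of *Cp*, were near absent, with *Heph* at 0.228 FPKM or less and *Hephl1* at 0 in every library. For sensing, *Fbxl5*, which marks IRP2 for degradation, had means of 70.9, 75.0 and 65.0 FPKM, and *Hfe* had 4.05, 2.61 and 3.93. The cytosolic assembly genes *Nubp2* and *Ciao2b* (listed as *Fam96b*), the heme synthesis genes *Urod* and *Fech*, and the heme genes *Hmox2* and *Slc48a1* passed, like the regulator *Keap1*, in no comparison, with log2 differences from Control between −0.61 and 0.24.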

How the data were processed

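RNA sequencing of RGCs was analysed in 9 libraries, grouped by their labels. cDNA was primed with oligo-dT (SMART-seq v4) and tagged with Nextera XT. The authors trimmed and aligned the reads to mm10 and estimated expression with Cufflinks. TopHat2 is named in the submitters' processing notes and bowtie2 in the methods. The deposited values are FPKM per locus with a 95% interval. Loci with the same symbol were summed, and 2 genes with failed estimates were left out. No library totals were used here, so depth was derived from interval widths, over single-transcript genes with a minimum of 2000 nt and 100 fragments. Intervals were read as counting error, and whether they also hold other error was not tested.

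FPKM were scaled by median of ratios and fitted as log2(FPKM + 1) with limma 3.58.1 in R 4.3.3 (trend, 9 libraries, group means) over 13043 genes with a mean of at least 0.5. DEGs had an FDR below 0.1 (two-sided). The fit was tested on simulated data. Figures were made in Python 3.11.15 with matplotlib 3.10.9. Named were the 10 genes, every other listed iron gene past the threshold in any comparison and the 2 highest of each function group. Also named were the 5 nearest profiles to *Cp* and *Trf* and the 3 highest markers of each cell type. Levels of these markers are printed in full only for RGCs and Müller glia. All markers beyond those were named after their values were seen, among them *Rlbp1* and markers at 0. Members, lists and tests were chosen with earlier results of these data known, and the description by transcript length was added after the data were seen. Alternatives covered scaling, pseudocount, filter, failed estimates, loci, groups fitted, a replicate block and leaving out each library. Reads were not realigned, and the authors' Cuffdiff tests were not used.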

Additional observations from a re-analysis of the deposited data

Results flagged for a closer look

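Between Moderate IOP and Mild IOP, 9 of the 59 other iron genes tested (15.3%) differed in the limma fit, beside 10.2% of all genes tested. These log2 differences were 0.90 for *Iscu*, −0.58 for *Isca1*, 0.80 for *Isca2*, 0.72 for *Fdx1l* (now *Fdx2*), 1.33 for *Bola3*, 0.68 for *Nfu1*, 0.80 for *Cisd1*, 2.84 for *Lcn2* and −0.46 for *Hif1a*. The calls of *Isca2*, *Nfu1* and *Hif1a* were lost in 4, 4 and 8 of the 9 fits that left out a library. Each was also lost without a filter on low values. *Fth1* lay below Control in every Mild IOP replicate and above it in every Moderate IOP replicate, a difference of 0.82 on the log2 scale. It passed the limma threshold, which is no independent test because the gene was chosen on this comparison. Groups of 3 replicates were not searched for outlying samples.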

How the results depend on the processing

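No called iron gene changed the sign of its log2 fold-change, in the comparison in which it was called, under the alternatives run. For Mild IOP against Control, 52 DEGs became 24 without a filter, 11 with only the groups compared and 25 with the replicate block, and 15 (without Mild IOP replicate 2) to 183 (without Mild IOP replicate 3) when a library was left out. For Moderate IOP against Control, 240 became 134 with only the groups compared and 135 with the replicate block, and 61 (without Control replicate 1) to 287 when a library was left out. For Moderate IOP against Mild IOP, 1324 became 519 (without Mild IOP replicate 2) to 1399. Leaving out a library gave 0 to 1 calls among the other iron genes for Mild IOP against Control. It gave 1 to 3 in place of 2 for Moderate IOP against Control, and 6 to 11 in place of 9 between the IOP groups. The replicate block gave 1 call for Moderate IOP against Control and 8 between the IOP groups, where *Hif1a* was lost (FDR = 0.11). Without a filter 6 calls remained between the IOP groups, and *Isca2*, *Nfu1* and *Hif1a* were lost (FDR = 0.11, 0.10 and 0.11). Calls of *Cp* and *Trf* that were lost are given beside their counts. Calls gained among the 10 genes were *Fth1*, lower in Mild IOP than in Control without Mild IOP replicate 3, and, lower in Moderate IOP than in Mild IOP, *Slc11a2* without scaling and *Hmox1* without Moderate IOP replicate 2. The cause of these changes was not tested. The replicate numbers did not pair the libraries, since deviations from the group means correlated at a median of 0.0115 for the same number and −0.00932 for different numbers. *Slc40a1* dropped under the filter without Mild IOP replicate 2 or Moderate IOP replicate 1. Depth limits *Cp*, *Slc40a1* and *Hmox1* most.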
